A study of Rattus norvegicus with 12 samples.

Results

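Uteri of rats given 17β-estradiol (E2) and fed soy protein isolate (SPI-E2) were compared with uteri of rats given the same E2 and fed casein, a milk protein (CAS-E2). The comparison rests on the 3 SPI-E2 and the 3 CAS-E2 RNA-seq libraries, taken by their group labels, which are 6 of the 12 libraries of the series. All rats were female Sprague-Dawley rats whose ovaries had been removed on postnatal day (PND) 50. By the study's methods both diets ran from PND30 to PND65. Other passages of the study's own description give a much shorter time of feeding, with treatment begun at 50 days of age. E2 was infused at 5 μg/kg/d under the skin from an osmotic minipump. The remaining 6 libraries, CAS and SPI, came from ovariectomized rats on the same diets with vehicle in the pump. Each library pooled 2 uteri (6 per group), and the errors given are between pools. Since the libraries of a group shared their sequencing, an effect of the lane cannot be told apart from that of the group.

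In the uterus, estrogen acts through nuclear receptors, mainly ESR1, in epithelium, stroma and muscle. It is known to make the epithelium grow and secrete, to take up water, and to draw macrophages and eosinophils into the stroma. Soy protein isolate carries isoflavones such as genistein and daidzein, plant compounds that bind estrogen receptors with a preference for ESR2, so the comparison asks what the protein source of the diet changes when E2 is present in both groups.

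Values are FPKM (fragments per kilobase of transcript scaled to the library's total of mapped fragments), which the authors estimated per transcript and which were summed here per gene. Of 16493 genes, 9541 reached 1 FPKM in 3 or more of the 6 libraries. They were tested as log2(FPKM + 1) with limma, the 12 libraries sharing 1 fit, and p was adjusted by Benjamini-Hochberg. Log2 fold changes are SPI-E2 minus CAS-E2 and come out too small for genes of low FPKM. A gene was called at an adjusted p under 0.05 with at least a 2-fold change.

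The files implied 6784309 to 9136216 mapped reads in the CAS-E2 libraries and 6876617 to 9722616 in the SPI-E2 libraries. Markers of the uterus were present in all 6 libraries: the mean log2(FPKM + 1) was 6.41 to 7.35 over 13 smooth muscle genes, 4.35 to 5.70 over 17 epithelial genes and 4.11 to 5.43 over 15 stromal genes. Of 7 ovary and oviduct markers in the files, 1 passed the filter, the activin subunit gene Inhba. Esr1 was at 19.3, 21.6 and 12.7 FPKM in CAS-E2 and at 31.4, 25.5 and 15.0 FPKM in SPI-E2, while Esr2 was at most 0.0627 FPKM in any of them. The Esr1 ranges overlapped (log2 fold change 0.38, SE 0.25, adjusted p = 0.92 from limma), as did those of the progesterone receptor Pgr (-0.24, SE 0.29).

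The library SPI-E2 1 stood apart from the other 5. Over 13 genes that E2 had raised in earlier results of these libraries, among them the protease Mmp7, the secretory protein Scgb1a1 and lactoperoxidase, Lpo, the mean log2(FPKM + 1) was 6.64 in SPI-E2 1. It was 8.28 and 8.38 in SPI-E2 2 and 3 and 7.61 to 8.04 in CAS-E2, against 1.54 to 2.71 in the libraries without E2. Over 12 genes that E2 had lowered, SPI-E2 1 stood at 4.85, above the other E2 libraries at 2.66 to 3.17 and below the libraries without E2 at 5.17 to 5.76. Both lists were chosen on these same libraries and describe them only.

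**Figure D1:**
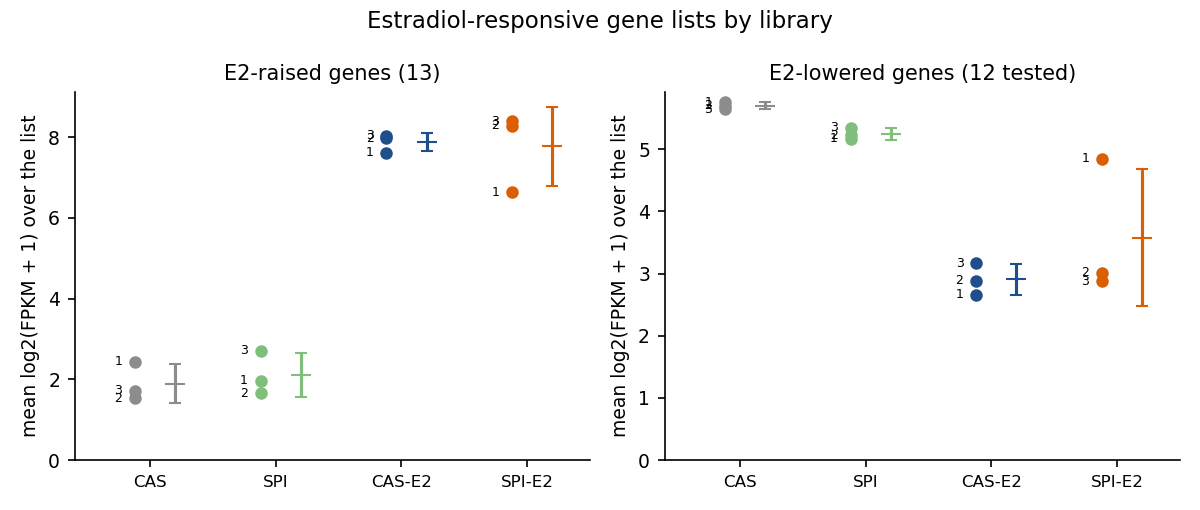
Mean log2(FPKM + 1) over 13 genes raised and 12 genes lowered by E2 in earlier results of these libraries, by group. Points are libraries with their replicate number, and the bar beside them is the mean ± SD of 3 libraries. SPI-E2 1, at 6.64 and 4.85, lies between the libraries without E2 and the other E2 libraries on both lists.

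Across the 9541 genes, which are not independent replicates, SPI-E2 1 had a Pearson correlation of 0.912 to 0.919 with the other SPI-E2 libraries. It was 0.905 to 0.937 with the CAS-E2 libraries and 0.912 to 0.940 with the libraries without E2, so SPI-E2 1 was about as close to each. For the other 5 E2 libraries, the correlations with the libraries without E2 were 0.782 to 0.859. SPI-E2 1 was more than 2-fold above the next of the 6 libraries in 65 genes and more than 2-fold below in 66, where each of the other 5 stood out in 5 to 12 and in 2 to 25 genes. The level of C2cd4d was 41.1 FPKM in SPI-E2 1 and at most 4.54 FPKM in the others, and that of the metallothionein Mt2A, which binds zinc and copper, 287 FPKM against 23.2 to 63.6 FPKM. In the other direction the eosinophil attractant Ccl11 was at 7.13 FPKM against 40.5 to 137 FPKM. The chloride channel regulator Clca1 was at 2.69 FPKM against 17.6 to 35.8 FPKM. The main results below are therefore given with and without SPI-E2 1, and what set that pool apart was not tested.

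The uterine transcriptomes of soy-fed and casein-fed rats under E2 differed in very few genes past both cutoffs. With all 6 libraries, 1 gene was called, Fchsd1, which was higher in SPI-E2. That is 0.0105% of the genes tested, and 0 genes were called lower. Without SPI-E2 1, limma called 6 genes, or 0.0629%: Fam20c, Lbp, Krt15, Pla2g4c and Fchsd1 were higher (0.0524%) and Thbs2 was lower (0.0105%). By the unadjusted p alone, 569 genes (5.96%) were under 0.05 with all libraries, 335 higher (3.51%) and 234 lower (2.45%). This split depended on scaling, since it was 290 higher and 336 lower after median-ratio scaling of the libraries and 259 and 330 after upper-quartile scaling. Without SPI-E2 1 it was 833 higher (8.73%) and 297 lower (3.11%), together 11.8%. That split depended on scaling too, with 708 higher and 447 lower after median-ratio scaling and 494 and 576 after upper-quartile scaling. Over all genes the median log2 fold change lay at 0.04, and at 0.06 without SPI-E2 1. With all libraries it was positive in 5492 genes and negative in 4049 (42.4%), the background for the counts of signs in the gene lists below.

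**Figure D2:**
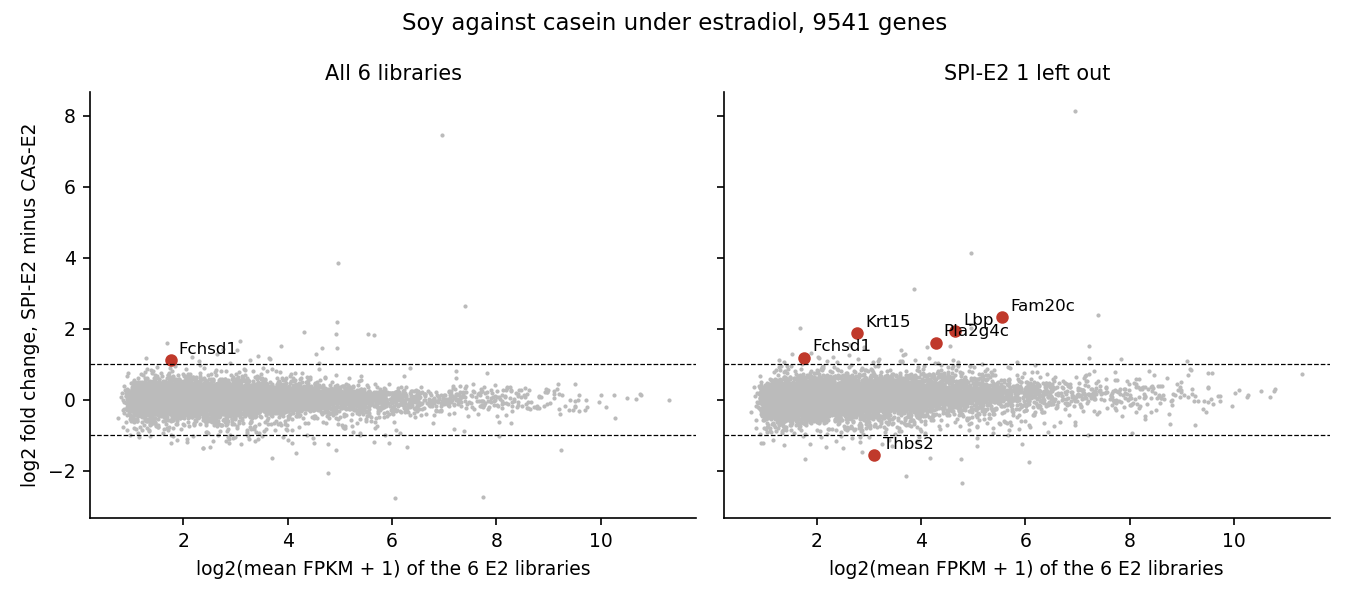
Log2 fold change of SPI-E2 minus CAS-E2 on the vertical axis against log2 of the mean FPKM + 1 over the 6 E2 libraries on the horizontal axis, for 9541 genes, with all libraries on the left and without SPI-E2 1 on the right. Dashed lines mark a 2-fold change, and red points are the called genes, 1 on the left and 6 on the right.

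Fchsd1 encodes a protein with an F-BAR and SH3 domains that binds membranes and actin regulators. It was at 1.02, 1.02 and 1.38 FPKM in CAS-E2 and at 3.15, 3.996 and 3.72 FPKM in SPI-E2. The groups did not overlap, with SPI-E2 1 the lowest of its group and still well above every CAS-E2 library. In the libraries without E2 the mean was 2.02 ± 0.320 FPKM in CAS and 2.92 ± 0.228 FPKM in SPI (SD, n = 3 each), so CAS-E2 was the lowest of the 4 groups. By limma the log2 fold change came to 1.11 (SE 0.14, adjusted p = 0.033), and 1.19 without SPI-E2 1 (SE 0.15, adjusted p = 0.011 from limma). The call ended in the fits without CAS-E2 1, CAS-E2 2, SPI-E2 2 or SPI-E2 3 (adjusted p from limma 0.103, 0.318, 0.0956 and 0.252). It also ended with the replicate number as a block (adjusted p = 0.080 from limma), with no filter on low values (0.063) and when the fit held the 2 E2 groups only (0.59), where Mir22 was called in its place.

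The gene lies on chromosome 18 of rn4, 30878455 to 30890675, on the minus strand, and its 3′ end overlaps the gene Rell2 on the opposite strand. Rell2, named after its values were seen, was at 0.538, 0.713 and 1.06 FPKM in CAS-E2 and at 1.58, 2.08 and 2.56 FPKM in SPI-E2. Its groups did not overlap either (log2 fold change 0.79, SE 0.17, adjusted p = 0.23 from limma). The library protocol names no step that marks strand, so reads in the shared stretch cannot be assigned to either gene with certainty.

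The calls gained 5 genes when SPI-E2 1 was left out. Lbp, the plasma protein that carries bacterial lipopolysaccharide to CD14, was at 11.4, 10.5 and 12.2 FPKM in CAS-E2 and at 16.1, 36.2 and 59.1 FPKM in SPI-E2. All 3 soy libraries lay above the casein libraries, and SPI-E2 1 lay closest to them. By limma the log2 fold change came to 1.45 (SE 0.33, adjusted p = 0.27) with all libraries and 1.94 (SE 0.20, adjusted p = 0.0037 from limma) without SPI-E2 1. Without E2, Lbp was at 4.90 ± 0.618 FPKM in CAS and at 4.42 ± 0.726 FPKM in SPI (SD, n = 3 each).

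Krt15, a keratin of basal epithelial cells, was at 1.94, 2.52 and 2.94 FPKM in CAS-E2 and at 3.90, 9.90 and 13.7 FPKM in SPI-E2. The soy libraries had the same order as for Lbp, with no overlap of the groups. By limma the log2 fold change came to 1.42 (SE 0.31, adjusted p = 0.23), and 1.88 without SPI-E2 1 (SE 0.19, adjusted p = 0.0037 from limma). Without E2 it was at most 0.325 FPKM in any library.

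Fam20c, the Golgi kinase that phosphorylates secreted proteins, was at 15.0, 30.2 and 10.9 FPKM in CAS-E2 and at 33.3, 69.2 and 116 FPKM in SPI-E2. The highest casein library lay just under the lowest soy library. By limma the log2 fold change came to 1.86 (SE 0.41, adjusted p = 0.23), and 2.33 without SPI-E2 1 (SE 0.35, adjusted p = 0.037 from limma). That call was lost in 12 of 19 alternatives, among them pseudocounts of 0.1 and 0.5 (adjusted p from limma 0.11 and 0.069), upper-quartile scaling (0.057) and the replicate block (0.11).

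Pla2g4c, a cytosolic phospholipase that frees fatty acids from membrane lipids, was at 13.5, 9.63 and 10.2 FPKM in CAS-E2 and at 5.37, 39.0 and 32.6 FPKM in SPI-E2. Here SPI-E2 1 was the lowest of the 6 libraries and the other soy libraries were the highest, so that the groups overlapped. The log2 fold change went from 0.77 (SE 0.51, adjusted p = 0.92 from limma) to 1.61 (SE 0.19, adjusted p = 0.0093 from limma) when SPI-E2 1 was left out. In the libraries without E2 the gene was at 0 to 0.432 FPKM.

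Thbs2, a matrix glycoprotein of fibroblasts that inhibits vessel growth, was the called gene in the lower direction. It was at 12.9, 10.9 and 9.07 FPKM in CAS-E2 and at 6.59, 3.96 and 2.24 FPKM in SPI-E2. The groups did not overlap, and SPI-E2 1 was again the soy library closest to casein. By limma the log2 fold change came to -1.26 (SE 0.25, adjusted p = 0.21) and -1.56 without SPI-E2 1 (SE 0.20, adjusted p = 0.012 from limma). The CAS mean was 5.37 ± 0.287 FPKM and the SPI mean 5.28 ± 0.772 FPKM (SD, n = 3 each), which is above 2 of the 3 SPI-E2 libraries. Without SPI-E2 1, each of the 6 calls was lost when the fit held the 2 E2 groups only.

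**Figure D3:**
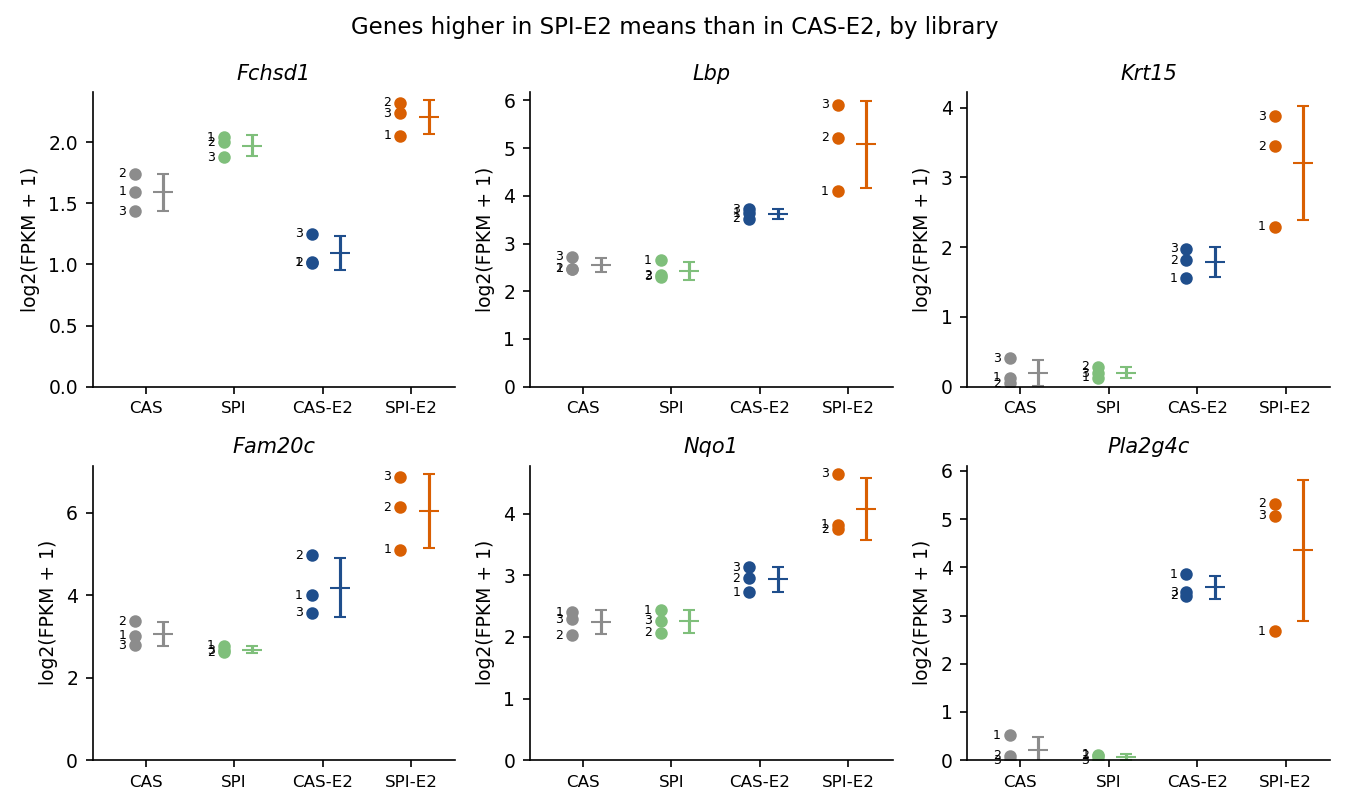
Log2(FPKM + 1) of 6 genes with a higher mean in SPI-E2 than in CAS-E2, by group. Points are libraries with their replicate number, and the bar beside them is the mean ± SD of 3 libraries. For Fchsd1, Lbp, Krt15, Fam20c and Nqo1 all SPI-E2 libraries lie above all CAS-E2 libraries, and for Pla2g4c SPI-E2 1 lies below them.

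Beyond the calls, genes were ranked by size among those whose 3 SPI-E2 libraries lay past all 3 CAS-E2 libraries. There were 426 such genes on the higher side (4.46% of those tested) and 246 on the lower side (2.58%), 7.04% together. The 10 largest rises in this ranking were those of Mir22, Fam20c, Krt14, Lbp, Krt15, Rmrp, Lgals7, Sfrp2, Fxyd7 and Npb. None of these 10 was called with all libraries. Krt14, the keratin of basal keratinocytes, was at 0.131 to 0.470 FPKM in CAS-E2 and at 1.18, 1.80 and 9.30 FPKM in SPI-E2. Lgals7, a galectin of stratified epithelia, was at 1.43 to 3.55 FPKM and at 4.81, 6.67 and 12.3 FPKM. In both genes SPI-E2 3 was the highest library.

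Sfrp2, a secreted Wnt inhibitor, and Fxyd7, a regulator of the sodium pump, were higher mainly through SPI-E2 1. Sfrp2 was at 30.8 FPKM there, against 8.35 and 6.31 FPKM in the other soy libraries and 3.99 to 5.58 FPKM in CAS-E2. Npb, the precursor of neuropeptide B, was at 0 to 0.870 FPKM in CAS-E2 and at 1.84 to 2.60 FPKM in SPI-E2. The locus Mir22 was listed at 0 in all CAS-E2 libraries and at 68.6, 523 and 148 FPKM in SPI-E2, but it was also at 0 in CAS 2 and SPI 2. Its annotated length is 95 bases and that of Rmrp, the RNA of a ribonuclease, 257 bases, lengths at which an FPKM estimate is unreliable.

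The 10 largest falls in the same ranking were those of Cxcl13, S100g, Cox8b, Fcrls, Thbs2, Fcer1g, Pla2g7, Il1b, S100a8 and Lcp1. Several of these are known from white blood cells. Cxcl13, the chemokine that draws B cells, was at 17.4, 13.8 and 23.4 FPKM in CAS-E2 and at 11.3, 4.18 and 2.46 FPKM in SPI-E2. Fcer1g, the signaling chain of Fc receptors on myeloid cells, was at 83.7, 81.1 and 89.0 FPKM and at 36.03, 44.7 and 28.0 FPKM. For Fcer1g the casein libraries were close together and far above the highest soy library.

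Pla2g7, the secreted hydrolase of platelet-activating factor that macrophages make, had the smallest p on the lower side among the genes named. It was at 8.42, 10.4 and 7.61 FPKM in CAS-E2 and at 3.70, 3.47 and 3.06 FPKM in SPI-E2. The soy libraries were close together and well below casein, with SPI-E2 1 no outlier (log2 fold change -1.15, SE 0.19, adjusted p = 0.19 from limma, and -1.19 without SPI-E2 1). The cytokine gene Il1b was at 2.61 to 7.05 FPKM in CAS-E2 and at 0.656 to 1.48 FPKM in SPI-E2. Lcp1, the actin bundler of leukocytes, was at 8.92 to 16.1 and at 4.17 to 6.32 FPKM. S100g, the calcium carrier calbindin-D9k, was at 679 to 1149 FPKM and at 116, 482 and 513 FPKM, without overlap. Its log2 fold change was -1.40 with all libraries and -0.71 without SPI-E2 1, and it overlaps Ctps2 on the opposite strand.

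Genes that mark macrophages and other myeloid cells were lower with soy as a group. Of 13 tested, 13 had a negative log2 fold change, 9 at an unadjusted p under 0.05 (2.45% of all genes), and in 6 the groups did not overlap, all on the lower side, where 2.58% of all genes did so. None was called (smallest adjusted p 0.21 from limma). The median log2 fold change was -0.74, and -0.71 without SPI-E2 1, against 0.04 and 0.06 for all genes. The list was picked with earlier results of these data known.

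Summed over the 15 members in the files, the list stood at 671, 623 and 509 FPKM in CAS-E2 and at 319, 442 and 243 FPKM in SPI-E2. The groups did not overlap. Without E2 the sums were 202, 182 and 170 FPKM in CAS and 262, 210 and 190 FPKM in SPI, so each SPI-E2 sum but that of SPI-E2 3 was above all of these. A smaller number of such cells and less RNA per cell cannot be told apart in bulk tissue. Emr1, a defining macrophage marker, was listed at 0 in all 6 libraries, which can be a failed estimate, and Cd163 missed the filter.

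C1qb, a chain of the C1q complex that starts the classical complement pathway and is made by macrophages, was at 47.3, 51.9 and 62.4 FPKM in CAS-E2 and at 22.4, 35.3 and 25.8 FPKM in SPI-E2. All soy libraries lay below all casein libraries (log2 fold change -0.94, SE 0.20, adjusted p = 0.22 from limma). Named after their values were seen, Aif1, the macrophage protein IBA1, was at 25.1 to 27.2 FPKM and at 9.79 to 15.2 FPKM, and the leukocyte phosphatase Ptprc (CD45) at 2.75 to 3.48 FPKM and at 1.41 to 1.90 FPKM. Both were also without overlap. C1qa and Tyrobp, chosen in the same way, missed overlap only narrowly through SPI-E2 2. C1qa was at 65.6 to 93.5 FPKM in CAS-E2 and at 26.6 to 65.3 FPKM in SPI-E2, and Tyrobp at 37.3 to 44.8 and at 18.8 to 36.3 FPKM. Likewise named with their values known, the lysosomal marker Cd68 and the receptor Csf1r overlapped. Cd68 was at 35.0, 20.5 and 16.8 FPKM in CAS-E2 and 12.6, 22.6 and 23.0 FPKM in SPI-E2, and its log2 fold change was -0.28 (SE 0.31) and -0.01 without SPI-E2 1.

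**Figure D4:**
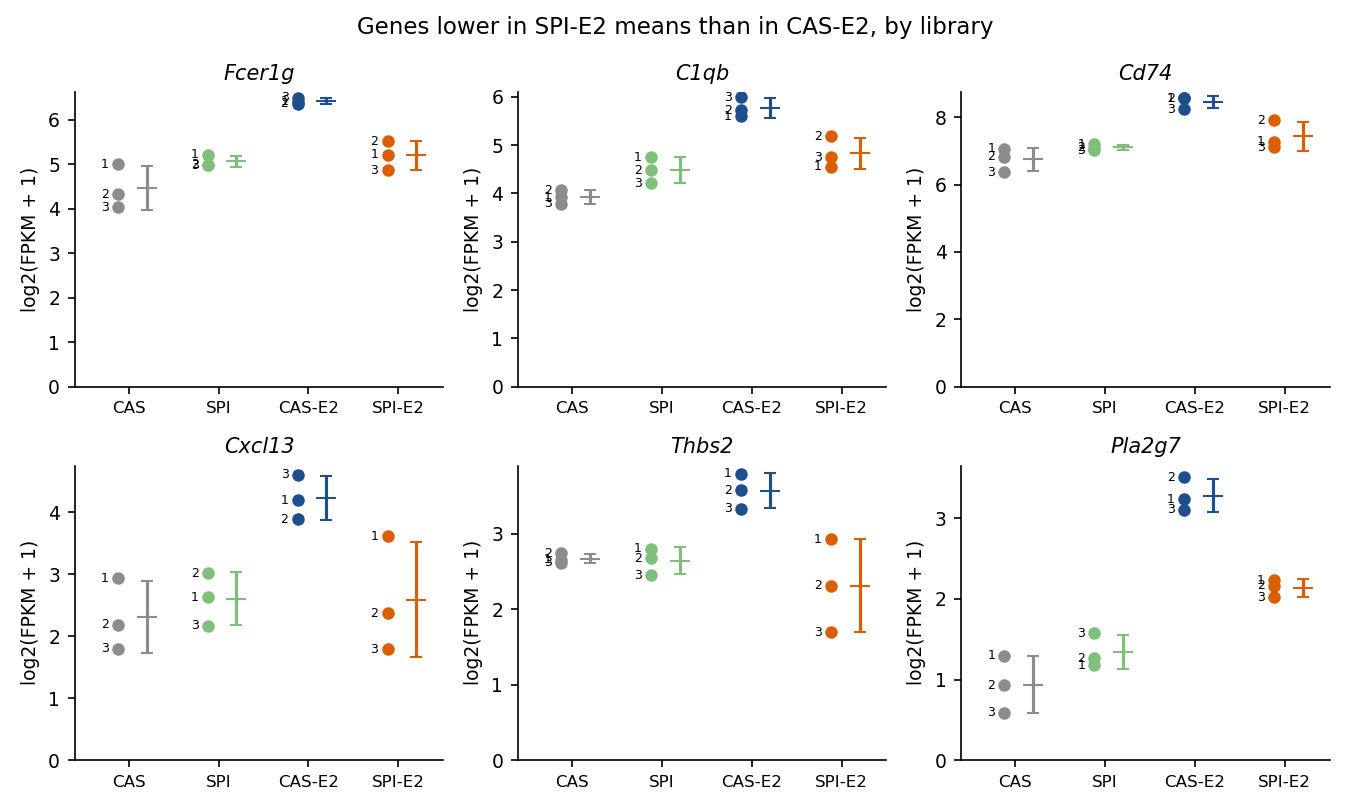
Log2(FPKM + 1) of 6 genes with a lower mean in SPI-E2 than in CAS-E2, by group. Points are libraries with their replicate number, and the bar beside them is the mean ± SD of 3 libraries. All SPI-E2 libraries lie below all CAS-E2 libraries in each panel, and the CAS and SPI libraries without E2 lie below the CAS-E2 libraries.

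Class II antigen presentation, by which such cells show peptides to T cells, was lower in some of its chains. Cd74, the invariant chain, was at 375, 375 and 301 FPKM in CAS-E2 and at 153, 240 and 137 FPKM in SPI-E2. RT1-Ba, a class II chain, was at 61.1, 61.5 and 40.0 FPKM and at 25.0, 34.8 and 21.4 FPKM. Neither overlapped, and both had an adjusted p of 0.27 from limma (log2 fold changes -1.02, SE 0.23, and -0.98, SE 0.22). Other class II chains, named after their values were seen, overlapped. RT1-Da was at 66.7 to 99.2 and at 32.0 to 74.5 FPKM, and RT1-Db1 at 37.2 to 56.6 and at 23.8 to 44.3 FPKM. RT1-Bb was at 10.6 to 79.6 and at 3.31 to 21.2 FPKM.

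Over all 25 tested genes of antigen presentation, class I genes included, 0 were called, 6 were lower at an unadjusted p under 0.05 (2.45% of all genes) and 3 were lower without overlap (2.58% of all genes). The third was the protease Ctss, chosen after its values were seen. The list's median was -0.17, and it was 0.14 without SPI-E2 1, so its sign depended on that library. Class I members such as RT1-A2, named after its values were seen (90.6, 88.5 and 132 FPKM in CAS-E2, 58.8, 188 and 104 FPKM in SPI-E2) overlapped. Class I genes are close copies of one another, and their values are uncertain where reads are shared.

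Of 17 tested complement genes, 0 were called, 7 were lower at an unadjusted p under 0.05 (2.45% of all genes) and 4 were lower without overlap (2.58% of all genes), with a median of -0.32 (-0.13 without SPI-E2 1). C1qb also belongs to the macrophage list, so the lists are not independent. The first of the complement list by p after C1qb was Cfp, properdin, which stabilizes the alternative pathway. It was at 9.35 to 12.9 FPKM in CAS-E2 and 4.76 to 9.27 FPKM in SPI-E2. C3, the central component, was listed at 0 in all 6 libraries, which can be a failed estimate. Of 23 chemokines and receptors, 19 had a negative log2 fold change and 3 did not overlap on the lower side, where 2.58% of all genes did so, with a median of -0.28 (-0.32 without SPI-E2 1). Ccl3, a macrophage attractant, was at 1.34 to 1.98 FPKM and at 0 to 0.734 FPKM. Of 25 interferon-induced genes 3 were lower without overlap, against 2.58% of all genes, among them the GTPase Gbp2, at 14.3 to 20.9 and 9.03 to 11.9 FPKM, and 17 had a negative log2 fold change. Without SPI-E2 1 the signs turned to 10 negative and 15 positive, and the median went from -0.16 to 0.08.

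In granulocyte genes, 4 of 14 in the files passed the filter. S100a8, the calgranulin of neutrophils, was at 4.43, 9.17 and 14.2 FPKM in CAS-E2 and at 2.61, 3.98 and 3.75 FPKM in SPI-E2. There was no overlap, and the casein libraries spread widely (log2 fold change -1.10, SE 0.33, adjusted p = 0.52 from limma). Among 3 lymphocyte genes tested, Cd4, which rat macrophages also carry, was at 4.48 to 12.01 FPKM and at 1.97 to 5.12 FPKM, and Cd8a at 0.922 to 1.37 FPKM and at 1.10 to 2.62 FPKM. Both overlapped.

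Nqo1, the quinone reductase induced through NRF2 and the aryl hydrocarbon receptor, was the clearest difference among the xenobiotic response genes. It was at 5.60, 6.72 and 7.76 FPKM in CAS-E2 and at 13.1, 12.5 and 24.1 FPKM in SPI-E2. The groups were well separated, and SPI-E2 1 lay with its group. By limma the log2 fold change came to 1.14 (SE 0.23, adjusted p = 0.21), and 1.27 without SPI-E2 1 (SE 0.24, adjusted p = 0.084 from limma). Without E2 the means were 3.75 ± 0.620 FPKM in CAS and 3.80 ± 0.613 FPKM in SPI (SD, n = 3 each).

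Of 10 tested members of that list, 9 had a positive log2 fold change, as did 5492 of all 9541 genes. On the higher side 2 did not overlap, where 4.46% of all genes did so, and the median was 0.25 (0.41 without SPI-E2 1). The other was Ugt1a1, a glucuronidating enzyme whose exons are shared with its family, at 0.808 to 1.82 FPKM and at 1.88 to 3.495 FPKM. Hmox1, the heme oxygenase, named after its values were seen like the genes that follow here, was at 2.69 to 5.83 and at 4.21 to 9.08 FPKM (log2 fold change 0.47, and 0.70 without SPI-E2 1). Txnrd1, a thioredoxin reductase, was at 26.5 to 31.7 and at 20.3 to 45.8 FPKM (log2 fold change 0.22, and 0.58 without SPI-E2 1). Both overlapped with all libraries and lay higher without overlap when SPI-E2 1 was left out. Others overlapped with and without SPI-E2 1. Gclc was at 6.32 to 9.62 and at 6.31 to 9.83 FPKM (log2 fold change 0.03, and 0.21 without SPI-E2 1). Ugt1a6 was at 2.21 to 4.84 and at 3.84 to 15.8 FPKM (log2 fold change 0.82, and 0.30 without SPI-E2 1). Gsta5 and Cyp1b1 missed the filter. Cyp1a1, the main target of the aryl hydrocarbon receptor, overlapped at 0.314 to 7.57 and at 0.682 to 4.47 FPKM.

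The promoters of Fchsd1, C1qb and Nqo1 are printed because these genes gave, respectively, the call with all libraries, the smallest p among complement genes and the smallest p in the xenobiotic list. Each window runs from 250 bases before to 50 bases after the start in RefSeq on GRCr8, 5′ to 3′ on the gene's strand. Capitals mark matches on either strand to 6 searched motifs: the full estrogen response element, in which half-sites GGTCA and TGACC follow each other with 3 bases between, its half-site GGTCA alone, which the full element contains, the antioxidant response core TGACNNNGC, the xenobiotic response core GCGTG, the Ets core GAGGAA of PU.1 sites and the CCAAT box.
Fchsd1, chr18:30055624-30055923, minus strand: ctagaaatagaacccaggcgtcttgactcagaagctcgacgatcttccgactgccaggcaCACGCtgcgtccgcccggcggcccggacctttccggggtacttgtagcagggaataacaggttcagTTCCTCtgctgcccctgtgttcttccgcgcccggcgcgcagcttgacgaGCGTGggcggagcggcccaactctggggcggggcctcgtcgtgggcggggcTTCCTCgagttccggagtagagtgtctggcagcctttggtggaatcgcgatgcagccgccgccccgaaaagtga
C1qb, chr5:154407778-154408077, minus strand: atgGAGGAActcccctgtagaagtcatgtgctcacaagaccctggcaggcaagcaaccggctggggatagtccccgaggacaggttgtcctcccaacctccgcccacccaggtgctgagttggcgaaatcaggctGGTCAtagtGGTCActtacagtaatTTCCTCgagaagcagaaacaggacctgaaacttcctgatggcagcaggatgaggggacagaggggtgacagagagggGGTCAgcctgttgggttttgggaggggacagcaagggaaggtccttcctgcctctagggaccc
Nqo1, chr19:52220218-52220517, minus strand: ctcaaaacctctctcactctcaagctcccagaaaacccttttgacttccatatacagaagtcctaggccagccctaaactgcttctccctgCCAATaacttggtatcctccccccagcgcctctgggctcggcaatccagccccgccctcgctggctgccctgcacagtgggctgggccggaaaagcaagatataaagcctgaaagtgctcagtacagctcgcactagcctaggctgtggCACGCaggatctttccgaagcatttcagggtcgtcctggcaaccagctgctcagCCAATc
Over 33469 promoters of that length, these motifs had a match in 0.0269%, 40.5%, 12.1%, 29.7%, 27.6% and 37.5%, in the order given. Fchsd1 had 2 xenobiotic cores and 2 Ets cores, C1qb had 3 estrogen half-sites and 2 Ets cores, and Nqo1 had 1 xenobiotic core and 2 CCAAT boxes. None of the 3 windows had a full estrogen response element. These are matches of letters, and no binding was measured.

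The values of epithelial and stromal genes depended on which libraries were included. Of 17 epithelial markers, 1 was higher without overlap with all libraries, where 4.46% of all genes were, Foxa2, a transcription factor of uterine glands, at 1.52 to 2.42 FPKM in CAS-E2 and at 3.18 to 3.93 FPKM in SPI-E2 (log2 fold change 0.59, SE 0.15, adjusted p = 0.37 from limma). Without SPI-E2 1, 15 of the 17 did not overlap, all higher, where 15.9% of all genes did so (21.8% in either direction), and the median went from 0.17 to 0.67. It turned negative without CAS-E2 1 (-0.09), SPI-E2 2 (-0.07) or SPI-E2 3 (-0.12). The 15 stromal markers had a median of -0.31 with all libraries and -0.67 without SPI-E2 1, when 5 of them did not overlap, all lower, against 5.86% of all genes. That median was -0.05 without CAS-E2 1 and 0.05 without SPI-E2 3. The share of epithelium against stroma in the pools was not measured, and its part in the other differences was not tested.

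**Figure D5:**
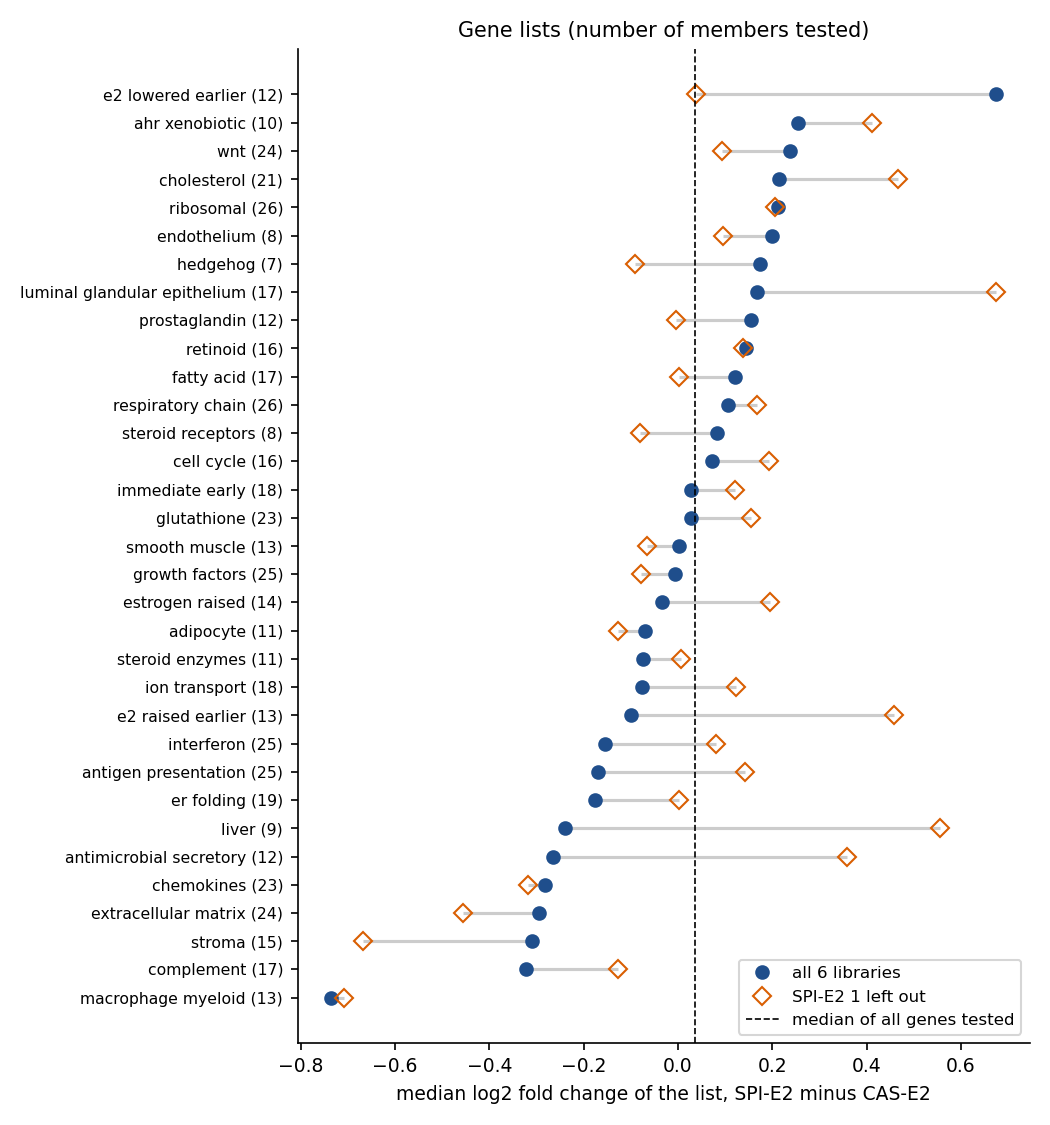
Median log2 fold change (SPI-E2 minus CAS-E2) of each gene list with at least 5 tested members, whose number is in parentheses. Filled circles are all 6 libraries, open diamonds are without SPI-E2 1, and the dashed line is the median of all genes, 0.04. The macrophage list lies lowest with all libraries, at -0.74, and hardly moves, while the epithelial list goes from 0.17 to 0.67.

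The matrix genes leaned the same way as stroma. Of 24 tested, 21 had a negative log2 fold change, with a median of -0.29 (-0.46 without SPI-E2 1), and 2 did not overlap, both lower, where 2.58% of all genes did so. The median was -0.13 without CAS-E2 1 and -0.55 without CAS-E2 3. Mmp2, the gelatinase of stromal cells, was at 48.1 to 56.9 FPKM in CAS-E2 and at 23.1 to 46.3 FPKM in SPI-E2 (log2 fold change -0.55, SE 0.21, adjusted p = 0.74 from limma). CAS-E2 3 was low in many stromal genes, and without it 11 of the 24 did not overlap on the lower side, where 1033 of all 9541 genes did so.

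Genes that estrogen is known to raise in the uterus had no common direction. Of 14 tested, 7 had a positive and 7 a negative log2 fold change, with 1 higher and 2 lower without overlap (4.46% and 2.58% of all genes). The higher one was Vegfa, named after its values were seen, and the lower ones were Sgk1 and S100g. Without SPI-E2 1 the signs were 9 positive and 5 negative, with 5 higher and 2 lower without overlap (15.9% and 5.86% of all genes). Sgk1, a kinase that controls epithelial sodium channels, was at 12.95, 12.3 and 10.7 FPKM in CAS-E2 and at 5.88, 7.499 and 6.57 FPKM in SPI-E2, with no overlap (log2 fold change -0.76, SE 0.14, adjusted p = 0.21 from limma). The water channel Aqp5 was at 1.13, 2.71 and 6.68 FPKM and at 20.0, 7.54 and 5.15 FPKM and overlapped. In these libraries it was higher without E2, at 26.8 to 31.7 FPKM in CAS and 15.3 to 20.7 FPKM in SPI, and SPI-E2 1 lay within that SPI range. The growth factor Igf1 was at 61.6, 56.4 and 29.6 FPKM and at 17.0, 30.2 and 28.5 FPKM, and it overlapped through CAS-E2 3. Among growth factor genes outside that list, Inhba, the activin A subunit, was at 2.51 to 2.65 FPKM and at 0.7998 to 1.30 FPKM without overlap (log2 fold change -0.76, SE 0.17, adjusted p = 0.27 from limma).

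In Wnt signaling, 24 genes were tested and 19 had a positive log2 fold change, as did 5492 of all 9541 genes. Of the 19, 6 were at an unadjusted p under 0.05 (3.51% of all genes). Without overlap, 2 were higher (4.46% of all genes), Sfrp2 and the receptor Fzd8 (1.69 to 2.18 FPKM against 2.51 to 3.73 FPKM). The median was 0.24, and 0.09 without SPI-E2 1. The ligand Wnt7a, which epithelium makes, overlapped at 5.56, 6.35 and 13.1 FPKM and at 11.3, 11.4 and 14.8 FPKM. Among 26 ribosomal protein genes the median was 0.21 with 0 without overlap.

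Whether the soy-casein difference under E2 differed from that without E2 was tested as an interaction, (SPI-E2 - CAS-E2) - (SPI - CAS), in the same fit. With all 12 libraries limma called 0 genes, and 1441 had an unadjusted p under 0.05. Without SPI-E2 1 it called 113 genes (1.18%), 103 higher (1.08%) and 10 lower (0.105%), which became 18 and 13 after median-ratio scaling and 14 and 15 after upper-quartile scaling. The counts higher and lower were 35 and 3 with the replicate block and 24 and 1 without CAS-E2 1. They were 14 and 0 without CAS-E2 2 and 223 and 42 without CAS-E2 3. Each of these fits also left out SPI-E2 1. Leaving out SPI-E2 2 or 3 as well leaves 1 SPI-E2 library, and no counts are given for that. Genes already named that were called in the fit that left out only SPI-E2 1 included Lbp, Krt15, Fam20c, Pla2g4c, Rmrp, Lgals7, Fxyd7 and Foxa2 on the higher side. Those on the lower side included Thbs2, Cxcl13, Fcer1g, C1qb, Pla2g7, Lcp1 and Igf1 (adjusted p from limma 0.0077 to 0.048 over both sides). These genes were named for their difference between SPI-E2 and CAS-E2, which the interaction contains. It also contains the difference without E2, which was large in some of them. The CAS and SPI means were 10.6 and 3.61 FPKM for Fxyd7, 39.4 and 17.1 FPKM for Rmrp, 9.20 and 4.16 FPKM for Foxa2 and 12.65 and 29.5 FPKM for Igf1. They were closer in others, such as Lbp (4.90 and 4.42 FPKM) and Thbs2 (5.37 and 5.28 FPKM). For Fchsd1, whose SPI mean was also above its CAS mean, the interaction was 0.81 without SPI-E2 1 (adjusted p = 0.063 from limma).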

How the data were processed

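Uterine RNA was sequenced as 36-bp single reads. The authors aligned them to rn4 with TopHat2 2.0.9 and Bowtie2 2.1.0 and quantified transcripts as FPKM with Cufflinks 2.1.1. CASAVA 1.7 is listed too in the submitters' processing notes. Each deposited FPKM is relative to the library's own mapped reads, whose number was derived from the deposited coverage. No read counts were used, and Cuffdiff was not repeated.

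Transcript FPKM were summed per gene symbol. Of the genes kept, 86 lie on more than 1 chromosome name. A model over 4 groups was fitted with limma 3.58.1 (R 4.3.3, variance trend, pseudocount 1), also without SPI-E2 1, and was run on simulated data. The simulated libraries had independent noise and no outlying library, so that run does not cover a pool that stands apart as SPI-E2 1 does. Python 3.11.15 with pandas 2.3.3 and matplotlib 3.10.9 made tables and figures.

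The comparison, the 40 gene lists and the rules were chosen with earlier results of these data known. Genes were named if called, if among the 10 largest rises or falls without overlap, if among the 2 smallest p of a list, as E2 checks, or if among the 8 furthest outlying in SPI-E2 1 in each direction. Genes outside these rules were named with their values known. Alternatives were other pseudocounts, filters, scalings, models, a replicate block and leaving out libraries. List symbols without a row were not analysed here.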

Additional observations from a re-analysis of the deposited data

Results flagged for a closer look

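The soy-casein difference under E2 differed from that without E2, by the interaction test of limma, in 113 genes when SPI-E2 1 was left out, and in 0 with all libraries. With a further CAS-E2 library left out, the lowest counts were 14 higher and 0 lower, without CAS-E2 2. The highest were 223 higher and 42 lower, without CAS-E2 3. The values that follow are interaction log2 differences from that fit of 11 libraries, for the genes called there between SPI-E2 and CAS-E2. The interaction contains the contrast on which these genes were called, so their values are no separate support. The difference was 2.70 for Fam20c, 2.07 for Lbp, 1.87 for Krt15 and 1.74 for Pla2g4c, and it was -1.54 for Thbs2. Fchsd1, called between the diets as well, had an interaction of 0.81 that missed the threshold (adjusted p = 0.063 from limma). In each of these genes both remaining SPI-E2 libraries lay past all 3 CAS-E2 libraries, as in 21.8% of all genes (15.9% higher, 5.86% lower). Since the genes were called on that same difference, this adds no separate support.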

How the results depend on the processing

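The 1 call became 0 with no filter on low values, 0 with a minimum FPKM of 5, which leaves Fchsd1 out, and 4 with array weights (3 higher, 1 lower), and leaving out single E2 libraries gave 0 to 6. The number of calls without SPI-E2 1, 6 as reported, was 3 with a pseudocount of 0.1 and 11 with median-ratio scaling. It was 1 with 2 groups only, where that call was Mir22 and none of the 6 was kept. Leaving out a further CAS-E2 library gave 3 to 80, the most without CAS-E2 3. The interaction count was 3 with upper-quartile scaling and 180 with array weights, and 0 to 113 when single libraries were left out. List medians on the log2 scale, with single libraries left out, were -1.01 to -0.46 for macrophages, -0.59 to -0.20 for chemokines and 0.22 to 0.41 for xenobiotic genes. Array weights gave -0.61 for chemokines, 0.023 for Wnt and 0.56 for xenobiotic genes, and a pseudocount of 0.1 gave 0.45 for the last. Genes without overlap numbered 2080 without SPI-E2 1, in place of 672, a count added after seeing the data. Leaving out a library can only raise that count, which was 791 higher and 1033 lower without CAS-E2 3. It was 1248 and 457 when SPI-E2 3 was dropped, and 581 and 783 when SPI-E2 2 was. No called value changed its sign, and the cause of these shifts was not tested.

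Replicate numbers are shared by the groups, but no source says what they share. Deviations of same-numbered CAS-E2 and SPI-E2 libraries had correlations of 0.34, 0.09 and 0.37, so that 1 of 3 missed 0.1 and the numbers were not taken as pairs, although every library correlated best with its own number. With the replicate block over 12 libraries 0 genes were called, and 4 without SPI-E2 1. With 2 groups only and the block 1 gene was called, the locus Mir22, and 9 without SPI-E2 1. Pools of 2 uteri at 3 a group, and FPKM in place of counts, limit what can be called.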

Other observations

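Genes of stratified epithelium, named after their values were seen, did not all follow Krt14, Krt15 and Lgals7. Krt13, a keratin of suprabasal cells, was at 1.79, 2.65 and 1.19 FPKM in CAS-E2 and at 0.363, 2.95 and 9.65 FPKM in SPI-E2. Krt17 was at 0.185 to 0.226 FPKM and at 0.473 to 0.706 FPKM, below the filter. Tp63, the transcription factor of basal cells, was at most 0.322 FPKM in the 6 libraries, and the envelope protein Ivl was listed at 0 in all of them.

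Of 21 tested genes of cholesterol synthesis, 17 had a positive log2 fold change with all libraries, as did 5492 of all 9541 genes. Without SPI-E2 1 it was 20, and the medians were 0.21 and 0.47. Sc5dl, an enzyme of the last steps, was at 4.09, 4.52 and 5.49 FPKM in CAS-E2 and at 4.75, 9.10 and 9.35 FPKM in SPI-E2. The groups overlapped through SPI-E2 1, and none of these genes was called (smallest adjusted p 0.78 from limma with all libraries).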
